A study of Mus musculus with 48 samples.

Results

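Polarization of p53 knockout macrophages by IL-4 and IL-13 was read from 6 of the 48 libraries of the series, chosen by their labels alone, 3 from p53 knockout (KO) bone marrow-derived macrophages given both cytokines (M2) and 3 from unpolarized KO cells (M0). All 6 were vehicle controls, and all expressed genes were compared, which left 11779 genes after a filter on low counts. Both groups were C57BL/6 (B6) and had been grown from bone marrow hematopoietic stem cells in 10 ng/mL M-CSF for 6 days. The M2 cells were then kept for a further 24 hours with murine IL-4 and murine IL-13, each at 10 ng/mL, and the labels give no matching further culture for the M0 cells. Every library of either group received DMSO for 4 hours, the vehicle of AP-3-84, the compound under study. Three-prime mRNA libraries were made from 100 ng of total RNA and sequenced as single reads of 75 bases, so that reads fall at transcript 3′ ends. The same contrast in wild-type (WT) B6 cells (3 M2 and 3 M0 vehicle libraries) and in KO cells given 10 µM AP-3-84 for 4 hours (3 and 3 libraries) served as comparisons, and neither shares a library with the KO vehicle contrast. The sources used here give no sex, age, number of mice, deletion or origin of the KO line, and nothing in the labels says that replicates came from separate animals or cultures. The p-values therefore measure only a spread between libraries, estimated over the 36 bone marrow-derived libraries fitted together, and that spread may be technical.

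Macrophages sense IL-4 and IL-13 through receptors that share the IL-4 receptor α chain. The receptor activates JAK kinases and the transcription factor STAT6, which binds palindromic sites in its target genes and switches on the alternative or M2 program, with arginase 1, chitinase-like proteins, lectin receptors and chemokines that attract eosinophils and T cells. p53 is the transcription factor that restrains the cell cycle after stress, largely through the CDK inhibitor p21, the product of Cdkn1a.

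The genotype field of the labels calls all bone marrow-derived libraries wild-type, whereas titles, descriptions and the series design separate KO from WT, and the grouping follows the latter. Trp53 itself, at 3.14, 3.39 and 6.49 CPM (read counts scaled to a common library size with TMM factors) in the KO M0 libraries and 3.98, 2.70 and 7.19 CPM in the KO M2 libraries, was detected in every KO library, against 11.1 ± 2.04 CPM (SD, n = 3) in WT M0, and the sources used here do not say whether these reads lie within the deleted part. The p53 targets Cdkn1a, Ccng1 and Phlda3 read lower in KO M0 than in WT M0, without a test and with other targets not compared here. Cdkn1a stood at 34.1, 36.6 and 45.7 CPM in KO M0 and 55.5, 93.3 and 142 CPM in KO M2, against 927 ± 164 CPM in WT M0. Ccng1 (cyclin G1) followed the same order, at 29.4 ± 4.36 CPM in KO M0 and 137 ± 34.2 CPM in WT M0, and Phlda3, a repressor of AKT signalling, stood at 1.02 ± 0.262 and 19.1 ± 4.94 CPM. Total counts ranged from 3081707 to 4195908 over the 6 libraries. Macrophage markers were present in all 6, among them Csf1r and Adgre1 (F4/80).

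The 3 KO M0 vehicle libraries stood apart from the other macrophage cultures, and every fold change reported here for KO vehicle cells rests on them. The small nuclear RNA Rn7sk took 0.124 to 0.155% of their counts and the noncoding RNA Gm26917 took 0.0577 to 0.0695%, whereas in 32 of the other 33 bone marrow-derived libraries Rn7sk took at most 0.0114%. The exception was replicate 3 of the KO M0 cells given AP-3-84, with 0.156%. Of the 30-base stretches of Rn7sk, 70.2% also occur in Gm24447, so its reads may be split between them. The summed level of 36 cell cycle genes was 743, 749 and 639.7 CPM in KO M0, 2055, 4527 and 4548 CPM in KO M2 and 4171, 3946 and 4028 CPM in WT M0. Fibroblast and stromal markers (10 genes) summed to 564, 601 and 418 CPM in KO M0, 93.9, 88.5 and 122 CPM in KO M2 and 57.7, 43.3 and 45.5 CPM in WT M0. All 3 libraries of the group share this state, so a difference of the culture or of the RNA and the effect of the cytokines cannot be told apart in these data. KO M2 replicate 1 also differed from replicates 2 and 3, with the fewest cell cycle transcripts and the most Retnla.

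**Figure D1:**
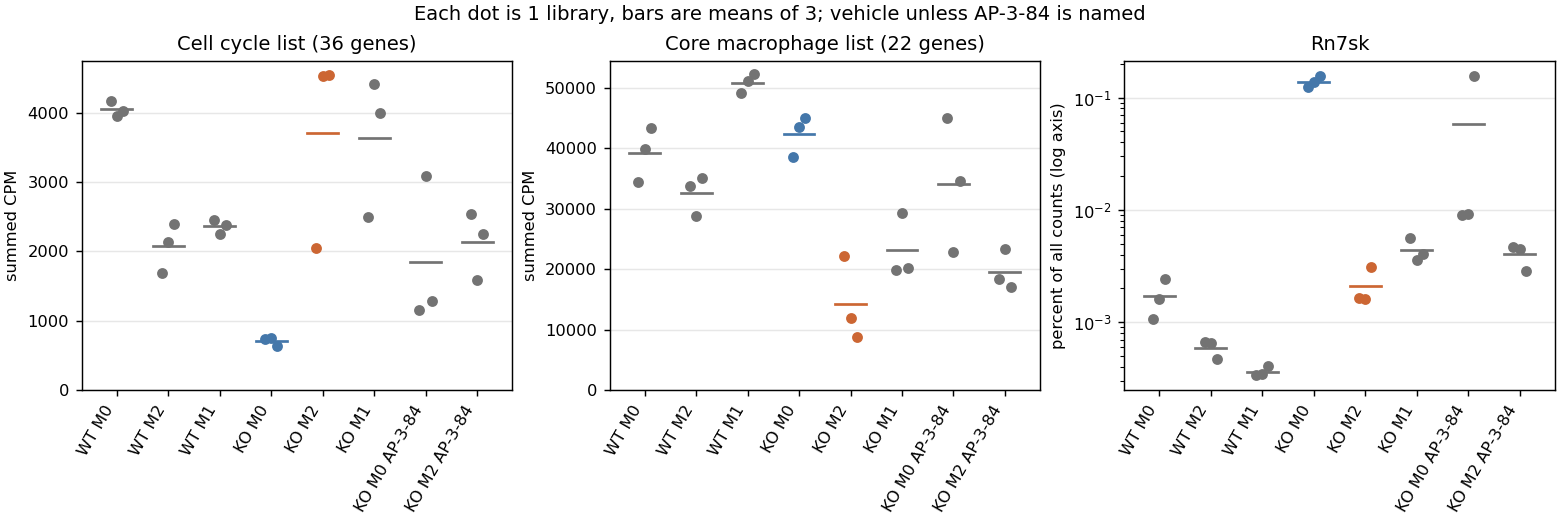
Summed CPM of the cell cycle and core macrophage lists and the percent of counts from Rn7sk (log axis) in each library of 8 groups. The KO M0 dots are the lowest of all for the cell cycle list, and Rn7sk is high in the 3 KO M0 vehicle libraries and in replicate 3 of KO M0 with AP-3-84.

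At an adjusted p under 0.05 (edgeR quasi-likelihood test, Benjamini-Hochberg, two-sided), 4481 genes differed between KO M2 and KO M0, 38.0% of those tested. Of these 2366 were higher in M2 (20.1%) and 2115 lower (18%), and these shares are the background for every count of list members. The median log2 fold change over all genes was 0.02. The largest rise among genes with a mean log2 CPM of at least 3 over the 6 libraries was that of Arg1, arginase 1, which turns arginine into ornithine and urea (ENSMUSG00000019987, chr10:24915221-24927484, minus strand, GRCm38 in GENCODE M21, as for all gene positions here). It stood at 2.88, 1.23 and 0.270 CPM in the 3 M0 libraries and at 1102, 2815 and 2340.1 CPM in the 3 M2 libraries (log2 fold change 10.43 ± 0.77, adjusted p = 3.15e-10; log2 values are given ± SE). No M0 library came near any M2 library. Retnla, which encodes the secreted protein RELMα (ENSMUSG00000061100, chr16:48842551-48844461, plus strand), went from 4.45, 1.23 and 0.811 CPM to 5858, 455 and 406 CPM (9.96 ± 1.25, adjusted p = 1.34e-06). Its level in M2 replicate 1 lay more than 10-fold above the other two, and without that library the log2 fold change was 7.58. Chil3 (Ym1), a secreted chitinase-like lectin (ENSMUSG00000040809, chr3:106147554-106167564, minus strand), read 32.8, 31.4 and 23.5 CPM in M0 and 4119.6, 1737 and 1380.5 CPM in M2 (6.37 ± 0.69, adjusted p = 1.61e-07), and it already had a measurable level in the M0 libraries. Both defining markers of the labelled state, Arg1 and Retnla, were thus near 0 in M0 and high in every M2 library.

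The sequences before the start sites of some of these genes and of another large rise are shown because STAT6 acts at promoters. Retnla, Chil3 and Tmem26 were the genes among the printed set of largest rises with a match to a STAT dimer motif, either TTCNNNNGAA or TTCNNNGAA, within 250 bases before the RefSeq start (GRCm38.p6). Each motif reads the same on both strands, matches to the 2 motifs may share bases, and capitals mark the match. The stretch printed is upstream of the gene in both RefSeq and GENCODE, on the strand of the gene, 5′ to 3′.
Retnla, chr16:48842359-48842550, plus strand: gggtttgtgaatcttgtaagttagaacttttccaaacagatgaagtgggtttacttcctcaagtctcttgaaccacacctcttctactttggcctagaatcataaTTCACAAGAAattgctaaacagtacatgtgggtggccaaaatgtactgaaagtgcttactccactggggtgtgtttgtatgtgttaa
Chil3, chr3:106167565-106167814, minus strand: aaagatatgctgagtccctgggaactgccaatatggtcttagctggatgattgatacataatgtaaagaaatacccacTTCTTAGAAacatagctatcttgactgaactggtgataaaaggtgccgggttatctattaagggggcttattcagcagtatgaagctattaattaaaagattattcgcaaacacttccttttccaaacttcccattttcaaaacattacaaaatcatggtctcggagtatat
Tmem26, chr10:68723496-68723645, plus strand: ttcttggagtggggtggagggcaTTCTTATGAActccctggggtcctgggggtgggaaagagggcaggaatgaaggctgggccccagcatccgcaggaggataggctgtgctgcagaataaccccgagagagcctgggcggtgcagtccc
The Retnla match TTCACAAGAA begins 145 bases before the RefSeq start, and the Tmem26 match TTCTTATGAA 227 bases before it. A second Tmem26 match, TTCTCTGGAA at 41 bases before the RefSeq start, lies inside the gene as GENCODE draws it and is not in the printed stretch. Over the tested genes with a promoter in the table, whose window runs from 250 bases before to 50 bases after the start, 6.65% of 8915 had a match with the spacer of 4. The share was 7.97% of the 1833 genes called higher and 5.61% of the 1622 called lower. In the list of alternative activation markers it was 31.6%, or 6 of 19 genes. With the spacer of 3 the shares were 8.19% of tested genes, 7.91% of those higher, 7.95% of those lower and 15.8% of the list. A match is a run of letters and not a measured binding site. The windows of Mgl2 and Rnase2a held neither motif before the start. Arg1 and Ccl7 had no promoter in the table, so they were not searched.

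Among the other large rises, secreted and surface proteins of the M2 state were joined by monocyte chemokines. Rnase2a, an eosinophil-associated ribonuclease also called Ear11, went from 2.10, 0.616 and 0.541 to 1556, 460.0 and 451 CPM (9.49 ± 0.80, adjusted p = 3.22e-09). Mgl2 (CD301b), a galactose-binding lectin, went from 4.19, 1.54 and 1.62 to 738, 833 and 685 CPM (8.22 ± 0.60, adjusted p = 1.87e-10) with little spread within M2. Mgl2 and its neighbour Clec10a are close copies, and 15.5% of the 30-base stretches of the Mgl2 transcript ends occur in Clec10a, so reads may be split between them. Ccl24 (eotaxin-2), which recruits eosinophils, went from 3.93, 6.46 and 2.43 to 665, 98.9 and 230.2 CPM (6.28 ± 0.66, adjusted p = 8.85e-08). Tmem26, a membrane protein, had the lowest p of the rises, at 7.34, 2.46 and 2.98 CPM in M0 and 516, 465 and 404 CPM in M2 (6.73 ± 0.31, adjusted p = 1.33e-16). The STAT-induced feedback inhibitor Cish stood at 1.83, 2.46 and 0.541 and 191, 135 and 81.1 CPM (6.39 ± 0.39, adjusted p = 1.64e-13). In each of these genes the lowest M2 library lay above the highest M0 library, which the rule that named them required and which held for 5617 (47.7%) of all genes tested in one direction or the other.

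The monocyte chemoattractants Ccl7 and Ccl2 varied widely within M2. Ccl7 read 2.10, 4.62 and 1.35 CPM in M0 and 57.6, 227 and 969 CPM in M2 (7.30 ± 1.56, adjusted p = 0.000700). Ccl2 read 4.19, 7.39 and 0.541 and 38.2, 221 and 675 CPM (6.29 ± 1.34, adjusted p = 0.000709). Both were lowest in M2 replicate 1 and highest in replicate 3. Neutrophil marker transcripts ran in the same order over the 3 M2 libraries, at 434, 764 and 3469.9 summed CPM (12 genes), and their part in the chemokine values was not tested. Acod1, the enzyme that makes itaconate, went from 8.39, 5.54 and 7.03 to 177, 212 and 478 CPM (5.36 ± 0.69, adjusted p = 1.72e-06), and Tarm1, an activating receptor of myeloid cells, from 1.57, 2.46 and 1.35 to 56.3, 80.9 and 82.6 CPM (5.34 ± 0.41, adjusted p = 6.62e-11).

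**Figure D2:**
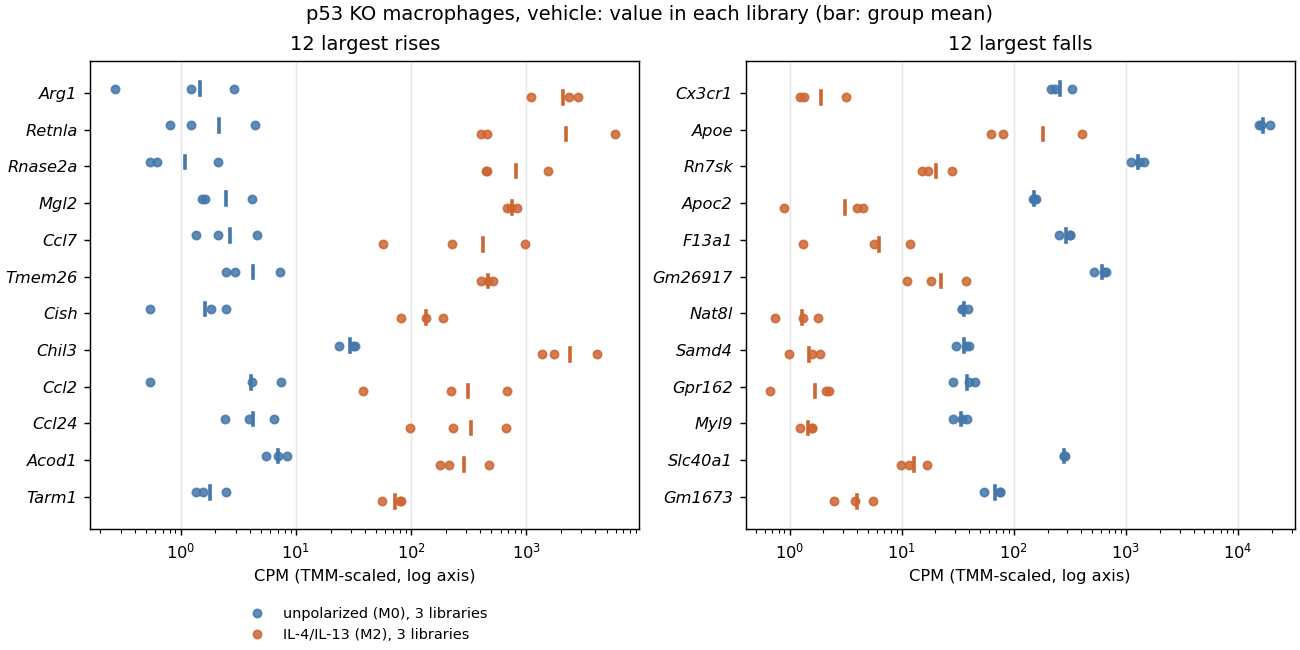
CPM (log axis) of the 12 largest rises and 12 largest falls in each KO vehicle library, blue for M0 and orange for M2, with bars at the means of 3. The groups do not overlap for any of the 24 genes, which the rule that named them required, and Retnla, Ccl7 and Ccl2 spread widely within M2.

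The largest falls held a chemokine receptor, apolipoproteins and genes of iron and tissue repair. Cx3cr1, the fractalkine receptor of resident macrophages and monocytes (ENSMUSG00000052336, chr9:119901616-120069879, minus strand), fell from 216, 233 and 327 CPM in M0 to 3.18, 1.35 and 1.24 CPM in M2 (-7.07 ± 0.79, adjusted p = 2.29e-07); its annotated span overlaps other tested genes. Apoe, the lipid carrier that macrophages secrete (ENSMUSG00000002985, chr7:19696109-19699188, minus strand), stood at 15350.4, 16019 and 19075 CPM in M0 and 403, 80.4 and 63 CPM in M2 (-6.53 ± 1.00, adjusted p = 1.70e-05). In WT M0 it was 1296 ± 452 CPM, far below KO M0. Apoc2, the activator of lipoprotein lipase encoded beside Apoe, fell from 150.4, 158 and 148 to 4.51, 0.901 and 3.97 CPM (-5.62 ± 0.55, adjusted p = 1.72e-08), with the limit that 95.5% of its 30-base stretches also occur in the overlapping gene Gm44805. F13a1, the A chain of coagulation factor XIII, fell from 315, 316 and 252 to 1.33, 5.63 and 11.9 CPM (-5.53 ± 0.62, adjusted p = 2.11e-07). The iron exporter ferroportin, Slc40a1, fell from 285, 279 and 278 to 11.7, 9.91 and 16.9 CPM (-4.45 ± 0.76, adjusted p = 5.80e-05). Apoc2, F13a1 and Slc40a1 were also lower in WT M0 than in KO M0, at 28.5 ± 9.20, 84.2 ± 9.31 and 38.3 ± 8.04 CPM. Cx3cr1 stood at 243 ± 115 CPM in WT M0, near its KO M0 level.

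The other large falls were likewise in genes whose WT M0 mean lay far below their KO M0 mean. Nat8l, which makes N-acetylaspartate, went from 38.8, 34.2 and 34.6 to 1.33, 1.80 and 0.744 CPM (-4.75 ± 0.71, adjusted p = 5.42e-06). Samd4, an RNA-binding repressor, went from 37.7, 30.8 and 39.8 to 1.86, 1.58 and 0.992 CPM (-4.59 ± 0.77, adjusted p = 3.78e-05). Myl9, the regulatory myosin light chain of smooth muscle and fibroblasts, went from 28.8, 34.2 and 37.9 to 1.59, 1.58 and 1.24 CPM (-4.48 ± 0.83, adjusted p = 0.000110). In WT M0 these 3 genes stood at 3.52 ± 0.614, 0.640 ± 0.558 and 1.62 ± 1.40 CPM. The orphan receptor Gpr162 fell by 4.49 and Gm1673 fell by 4.10 on the log2 scale (adjusted p = 1.89e-07 and 2.71e-05). Of the noncoding RNAs that set KO M0 apart, Rn7sk stood at 1116, 1296 and 1455 CPM in M0 and 17, 15.1 and 28.3 CPM in M2 (-6.0 ± 0.82, adjusted p = 4.37e-06), and Gm26917 at 521, 659.7 and 633 and 18.3, 11 and 37.2 CPM (-4.77 ± 0.71, adjusted p = 1.10e-05). Of the fibroblast and stromal list, 6 of 9 tested markers fell and 0 rose, with Col1a1 from 116 to 26.6 mean CPM and Acta2 from 256 to 34.9 mean CPM, and the part of such cells in the falls was not tested. In bulk RNA, fewer cells of a type and less RNA per cell cannot be told apart.

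Nearly all measured markers of alternative activation were called. Of 29 tested members, 24 rose, 2 fell and 3 were not called, with a median log2 fold change of 4.35, which lies below the bounds of Ear2 and Chil4, its members with 0 counts in M0. Ear2, another eosinophil-associated ribonuclease, had 0 counts in the 3 M0 libraries and 1314 counts in M2 (274, 46 and 18.8 CPM), at least 385-fold higher when the empty group is given 3 counts in all, the floor used here. Of its 30-base stretches 48.6% also occur in Ear1, and its call was lost when only the 6 compared libraries were fitted (adjusted p = 0.116). Mrc1, the mannose receptor CD206, rose from 430.0, 393 and 343 to 999, 1409.7 and 1319 CPM (1.68 ± 0.36, adjusted p = 0.000673). The falls were Trem2, a lipid-sensing receptor, from 566, 659 and 699 to 386, 346 and 287 CPM (-0.92 ± 0.31, adjusted p = 0.0192), and the haemoglobin scavenger receptor Cd163, from 3.41, 3.08 and 1.08 to 0.531, 0 and 0.248 CPM (-3.18 ± 1.06, adjusted p = 0.0178). The Trem2 call was lost without M0 replicate 3 or M2 replicate 3, and that of Cd163 without M0 replicate 1, M2 replicate 2 or M2 replicate 3. The members that were not called were Tgm2, Cd200r1 and Il10.

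**Figure D3:**
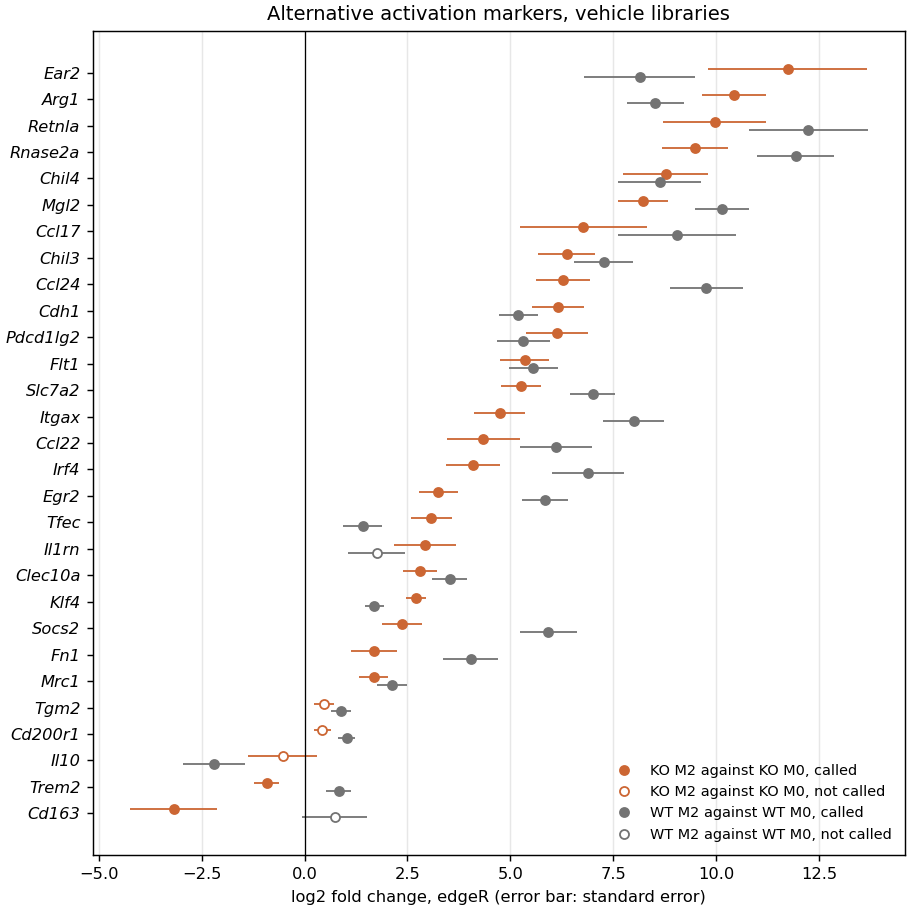
Log2 fold changes (M2 against M0, edgeR, bars are SE) of the 29 tested alternative activation markers in KO and WT vehicle libraries, filled where called. In KO, 24 members rose, and Trem2 and Cd163 fell; the KO values of Ear2 and Chil4 rest on 0 counts in M0, depend on the prior count and are no measured folds.

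In the cytokines' own pathway the shared receptor chain was lower in M2, and the feedback inhibitors Cish and Socs1 were higher. Of 25 tested genes of IL-4 and IL-13 receptors, STAT6 signalling and feedback, 14 rose and 6 fell (median 1.53), but 3 fell without M0 replicate 3 and 3 without M2 replicate 3. Il4ra, the shared receptor chain, was at 176, 199.8 and 229 CPM in M0 and 97.4, 76.6 and 126 CPM in M2 (-1.01 ± 0.25, adjusted p = 0.00217), with no overlap of the groups. Stat6 was at 78.9, 68.6 and 83 and 66.1, 50.7 and 52.8 CPM (-0.44 ± 0.15, adjusted p = 0.0217). That small change lost its call under 5 of 13 alternatives, without M0 replicate 3 or M2 replicate 2 or 3 among them (largest adjusted p 0.121), and Stat6 overlaps Nab2 on the other strand. Socs1, which blocks JAK kinases, rose from 0.786, 0.308 and 0.541 to 47, 30.2 and 51.3 CPM (6.18 ± 0.65, adjusted p = 3.32e-08). Besides Stat6, Il4ra and the kinase Jak1, the genes that fell were Bcl6, Kdm6b and Irs2. Irs2, the adaptor that couples the IL-4 receptor to PI3 kinase, went from 23.1, 28.9 and 25.2 to 14.3, 12.4 and 6.94 CPM (-1.19 ± 0.43, adjusted p = 0.0272), and the histone demethylase Kdm6b from 4.98, 7.39 and 8.66 to 2.65, 4.28 and 2.23 CPM (-1.18 ± 0.40, adjusted p = 0.0192). The Irs2 call was lost without M0 replicate 2 or 3 or M2 replicate 2 or 3, and the Kdm6b call without M0 replicate 3, M2 replicate 1 or M2 replicate 3, with no filter and with only the 6 libraries.

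Genes of arginine and polyamine metabolism rose besides arginase. Of 22 genes, 13 rose and 3 fell (median 0.87). Nos2, the inducible nitric oxide synthase that competes with arginase for arginine, had 0 counts in M0 and 3.98, 1.58 and 4.22 CPM in M2, at least 11.4-fold higher, at a low level. The genes that fell included Smox, which oxidizes spermine, from 73.1, 65.6 and 69.5 to 19.9, 23.4 and 36.5 CPM (-1.38 ± 0.22, adjusted p = 8.99e-06), and Paox, which oxidizes acetylated polyamines, from 57.1, 71.1 and 76.5 to 29.5, 31.8 and 45.1 CPM (-0.94 ± 0.26, adjusted p = 0.00451). Paox shares 50.2% of its 30-base stretches with Gm19680. The third was Oaz2, an inhibitor of ornithine decarboxylase. In lipid handling, 11 of 25 genes of fatty acid uptake, storage and oxidation rose and 4 fell (median 0.21), and 7 rose without M0 replicate 2, M0 replicate 3 or M2 replicate 1. Mgll, the monoacylglycerol lipase, rose from 2.10, 2.46 and 1.89 to 54.7, 9.46 and 7.94 CPM (3.46 ± 0.61, adjusted p = 5.20e-05), and the fatty acid-binding protein Fabp4 from 24.6, 16 and 8.93 to 323, 98.9 and 119 CPM (3.44 ± 0.54, adjusted p = 2.07e-05). Both were highest in M2 replicate 1. Angptl4, the inhibitor of lipoprotein lipase, fell from 26.7, 21.2 and 24.1 to 3.45, 1.58 and 0.992 CPM (-3.58 ± 0.75, adjusted p = 0.000358), and the nuclear receptor Ppard from 18.6, 15.4 and 15.7 to 5.57, 11 and 2.23 CPM (-1.38 ± 0.35, adjusted p = 0.00236).

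IL-4 drives macrophage fusion into giant cells, and 9 of 17 genes of fusion and multinucleation rose while 3 fell (median 1.10), with 1 fall left without M2 replicate 3. Cdh1, E-cadherin, rose from 0, 0.616 and 0.270 to 11.9, 31.5 and 23.3 CPM (6.16 ± 0.63, adjusted p = 1.01e-08), and Ocstamp, a membrane protein needed for fusion, from 0.262, 0 and 0 to 11.4, 4.05 and 2.98 CPM (5.61 ± 1.23, adjusted p = 0.000675). The falls were the adaptor Tyrobp (DAP12), from 1316, 1300.2 and 1178 to 928, 480.2 and 505 CPM (-0.99 ± 0.19, adjusted p = 0.000126), its partner receptor Trem2 and the transcription factor Nfatc1.

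More chemokine genes rose than fell, and more of the receptor genes fell than rose. Of 23 chemokine genes, 15 rose and 3 fell, with a median of 2.18. Without M2 replicate 3 the counts were 9 and 2. Ccl12, a monocyte chemoattractant like Ccl2 and Ccl7, rose from 0.524, 0 and 0.811 to 5.57, 44.1 and 169 CPM (7.2 ± 1.69, adjusted p = 0.00170). Cxcl12, a product of stromal cells, fell from 17.6, 16.3 and 11.1 to 2.12, 1.35 and 2.48 CPM (-2.90 ± 0.78, adjusted p = 0.00437), and Cxcl14 from 21, 23.1 and 27 to 3.45, 9.46 and 2.48 CPM (-2.18 ± 0.43, adjusted p = 0.000184). The third that fell was Cxcl16. Cxcl12 is also in the list of stromal markers. Of 16 receptors for chemokines and other attractants, 2 rose and 8 fell (median -0.47). Fpr2, a formyl peptide receptor, rose from 2.62, 4.00 and 4.60 to 23.6, 11.7 and 39.4 CPM (2.73 ± 0.73, adjusted p = 0.00495), and Ccr1 from 10.2, 6.46 and 6.49 to 15.9, 14.9 and 28.3 CPM (1.34 ± 0.49, adjusted p = 0.0306), a call lost without M0 replicate 2 or 3 or M2 replicate 3. Besides Cx3cr1, the receptor Cxcr3 had the largest fall, from 3.93, 3.69 and 5.41 to 0.796, 0.225 and 0 CPM (-3.60 ± 0.82, adjusted p = 0.000796).

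Among antigen presentation genes the largest rises were in inhibitory ligands. Of 20 genes of MHC class II presentation and costimulation, 6 rose and 3 fell (median 0.87), with no filter on low counts 12 were called higher, and without M0 replicate 3 the counts were 7 and 1. Pdcd1lg2 (PD-L2) rose from 0, 0 and 0.811 to 41.9, 12.2 and 11.2 CPM (6.12 ± 0.76, adjusted p = 3.72e-07) and Cd274 (PD-L1) from 11.8, 12.6 and 13 to 80.7, 96.2 and 137 CPM (3.07 ± 0.36, adjusted p = 2.21e-07). Both encode ligands of the receptor PD-1 on T cells. Icosl, a costimulatory ligand, fell from 6.29, 8.31 and 12.2 to 1.06, 5.18 and 2.98 CPM (-1.5 ± 0.44, adjusted p = 0.00804), and March1, a ubiquitin ligase that removes class II molecules from the surface, from 36.9, 34.2 and 29.8 to 25.7, 10.8 and 13.1 CPM (-1.03 ± 0.26, adjusted p = 0.00230). The Icosl call was lost without M0 replicate 3 or M2 replicate 1. The third gene that fell was Cd83.

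Receptors for lectin ligands, dying cells and complement were split. Of 26 lectin and scavenger receptor genes, 9 rose and 10 fell (median -0.01). Clec10a (CD301a) rose from 12.8, 9.23 and 14.3 to 54.7, 39.6 and 161 CPM (2.80 ± 0.41, adjusted p = 5.14e-06). Stab1, a scavenger receptor, fell from 634, 713 and 754 to 49.9, 97.8 and 65 CPM (-3.30 ± 0.33, adjusted p = 1.40e-08), and Gas6, which bridges dying cells to the receptors Axl and Mertk, from 228, 175 and 80.1 to 13, 13.5 and 19.8 CPM (-3.38 ± 0.62, adjusted p = 0.000136). Axl and Mertk were among the 10 that fell. Of 15 Fc and complement genes, 4 rose and 5 fell (median -0.19). Itgax (CD11c) rose from 7.86, 15.1 and 6.22 to 543, 176 and 54.6 CPM (4.74 ± 0.62, adjusted p = 2.07e-06), highest in M2 replicate 1, and C3, the central complement protein, from 63.7, 77.3 and 74.1 to 446, 361 and 414 CPM (2.51 ± 0.32, adjusted p = 6.67e-07). C1qa, a chain of the first complement component, fell from 1106, 1505 and 1414 to 299, 177 and 133 CPM (-2.72 ± 0.43, adjusted p = 1.97e-05), and its partner chains C1qb and C1qc fell with it.

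Inflammatory and interferon genes were higher in part. Of 30 NF-kB and inflammatory genes, 12 rose and 3 fell (median 0.83), and 1 fell without M0 replicate 1 or 2 or M2 replicate 1 or 2. Besides Nos2, the largest rise was that of Il12b, from 0, 0 and 0.270 to 1.86, 2.48 and 0.496 CPM (3.72 ± 1.35, adjusted p = 0.0300), a call at very low counts that was lost without M0 replicate 1 or 2 or M2 replicate 1 or 2. The receptors for bacterial lipids fell: Cd14 from 269.9, 257 and 193 to 63.4, 71.2 and 76.1 CPM (-1.77 ± 0.33, adjusted p = 0.000104) and Tlr2 from 77.3, 73 and 57.6 to 31.3, 26.8 and 31.7 CPM (-1.21 ± 0.42, adjusted p = 0.0254), the latter not called without M0 replicate 1 or 2 or any 1 of the M2 replicates. The third was Il18. Of 35 interferon-stimulated genes, 15 rose and 1 fell (median 1.11). That count was 4 without M2 replicate 3, 8 without M0 replicate 2, 8 without M0 replicate 3 and 4 when only the 6 libraries were fitted. Usp18, which dampens interferon signalling, rose from 4.72, 6.16 and 7.57 to 52, 77.5 and 101 CPM (3.64 ± 0.44, adjusted p = 3.17e-07). Oasl1 stood at 5.50, 5.23 and 2.70 CPM in M0 and 4.78, 28.8 and 117 CPM in M2 (3.48 ± 0.97, adjusted p = 0.00642), with overlap of the groups, and the call was lost without M2 replicate 3 and when only the 6 libraries were fitted. Irf9, a subunit of the interferon-activated factor ISGF3, was the gene that fell, from 95.6, 100.0 and 121 to 55.2, 68.5 and 77.6 CPM (-0.65 ± 0.18, adjusted p = 0.00526).

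All 36 genes of the cell cycle and DNA replication list rose, with a median log2 fold change of 2.76, and 34 to 36 of them were called under each alternative fit. Ccne1, the cyclin that starts S phase, went from 3.14, 1.85 and 1.35 to 14.1, 30.2 and 41.4 CPM (3.73 ± 0.59, adjusted p = 1.99e-05). Rrm2, the ribonucleotide reductase subunit made in S phase, went from 7.08, 7.70 and 2.98 to 32.6, 98 and 98.7 CPM (3.70 ± 0.55, adjusted p = 1.05e-05). M2 replicate 1 was the lowest M2 library for both and still above each M0 library. The M0 level of the list was low against all other groups: its lowest summed level elsewhere in the plotted groups was 1155 CPM, in KO M0 cells with AP-3-84. Of 24 MYC and ribosome biogenesis genes, 16 rose and 0 fell (median 0.66). Gar1, of the ribosomal RNA-modifying complexes, rose from 9.70, 6.16 and 4.87 to 20.7, 19.4 and 27.3 CPM (1.69 ± 0.32, adjusted p = 0.000119). Myc itself rose from 0.786, 0 and 0.270 to 2.12, 0.676 and 4.46 CPM (2.61 ± 0.87, adjusted p = 0.0178), a call lost without M0 replicate 2 or 3 or M2 replicate 3.

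Of 24 targets of p53, 4 rose and 4 fell (median 0.08), shares near the background. Without M2 replicate 2 the counts were 4 and 1, and with only the 6 libraries fitted they were 4 and 2. Cdkn1a rose, with an M0 to M2 log2 fold change of 1.32 ± 0.29, adjusted p = 0.000655. Gtse1, a cell cycle gene that binds p53, rose from 2.88, 1.23 and 0.270 to 2.92, 13.7 and 18.6 CPM (2.97 ± 0.85, adjusted p = 0.00711), and the kinase Plk2 from 13.9, 10.2 and 9.20 to 36.1, 26.8 and 50.1 CPM (1.76 ± 0.30, adjusted p = 3.15e-05). Sesn1, a stress-induced inhibitor of mTORC1, fell from 44.5, 46.5 and 28.1 to 17.2, 8.33 and 9.92 CPM (-1.75 ± 0.39, adjusted p = 0.000702). Phlda3 stood at 1.31, 0.923 and 0.811 CPM in M0 and 0, 0 and 0.248 CPM in M2 (-3.20 ± 1.04, adjusted p = 0.0159), a fall from a level of a few counts whose call was lost without M2 replicate 1 or 2. Trp53 and Ccng1 were not called (log2 fold change 0.08 ± 0.42, adjusted p = 0.900, and 0.34 ± 0.24, adjusted p = 0.266).

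Nuclear genes of oxidative phosphorylation rose together, by small amounts. Of 34 genes, 30 rose and 0 fell, with a median of 0.82. Cycs, cytochrome c, rose from 39.8, 35.4 and 46.8 to 137, 141 and 139.6 CPM (1.77 ± 0.24, adjusted p = 1.00e-06), although 31.6% of its 30-base stretches occur in Gm10053. Sdhd, a subunit of succinate dehydrogenase, had few counts, at 8.65, 3.08 and 0.541 and 22.3, 12.2 and 30.8 CPM (2.38 ± 0.83, adjusted p = 0.0259), and its call was lost without M0 replicate 2 or 3 or M2 replicate 3. Glycolysis and hypoxia genes were mixed, 7 of 25 higher and 4 lower (median -0.29). Pfkp, a phosphofructokinase, rose from 44, 41.2 and 47.9 to 205, 161 and 149 CPM (1.95 ± 0.18, adjusted p = 1.30e-09), and the glucose transporter Slc2a1 from 23.3, 15.4 and 15.4 to 48.8, 50.9 and 54.3 CPM (1.5 ± 0.23, adjusted p = 8.00e-06). Another phosphofructokinase gene, Pfkl, fell from 38, 39.4 and 39.8 to 13.8, 24.1 and 23.8 CPM (-0.92 ± 0.24, adjusted p = 0.00352). Vegfa, the vascular growth factor, fell from 32.5, 43.4 and 33.5 to 5.84, 3.15 and 2.23 CPM (-3.28 ± 0.54, adjusted p = 2.38e-05).

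Cholesterol synthesis genes were called higher at a share near the background (27.3% against 20.1% of all genes), and more efflux genes fell than rose. Of 22 synthesis genes, 6 rose and 0 fell (median 0.56), and 1 rose without M2 replicate 1 and 3 without M0 replicate 3. With no filter, or without M2 replicate 2, 1 gene was called lower. Fdps, farnesyl diphosphate synthase, rose from 28, 28.3 and 20.01 to 90.7, 51.6 and 43.4 CPM (1.28 ± 0.30, adjusted p = 0.00127), and Idi1, which acts just before it, from 2.88, 0.923 and 0.811 to 9.82, 5.18 and 5.46 CPM (2.09 ± 0.74, adjusted p = 0.0266). Both share stretches with other genes of the annotation (47.2% with Gm43738 and 40.2% with Gm13502), and the Idi1 call was lost without M0 replicate 2 or 3 or M2 replicate 1. Of 16 efflux genes and targets of the sterol receptor LXR, 2 rose and 8 fell (median -0.43), Apoe and Apoc2 among the falls. Apoc1, from the same gene cluster, had 9.17, 12.6 and 3.25 CPM in M0 and 0 counts in M2, at least 33.4-fold lower. Its call was lost in DESeq2 (adjusted p = 0.133). The LXR gene Nr1h3 rose from 19.4, 21.2 and 27.3 to 40.1, 39.6 and 47.4 CPM (0.90 ± 0.24, adjusted p = 0.00412), and the cholesterol exporter Abcg1 from 36.4, 30.2 and 20.3 to 92.6, 28.4 and 50.3 CPM (0.97 ± 0.33, adjusted p = 0.0200). The Abcg1 call was lost without M0 replicate 3 or M2 replicate 1 and with only the 6 libraries.

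Among 37 genes of lysosomes and the proton pump V-ATPase, 15 rose and 4 fell (median 0.07). Without M2 replicate 1 the counts were 11 and 10, and with scaling by total counts they were 12 and 7. Ctsk, a collagen-degrading cathepsin, rose from 1.83, 2.77 and 0.270 to 30.2, 23.7 and 27.3 CPM (4.06 ± 0.86, adjusted p = 0.000564), and the pump subunit Atp6v0d2 from 62.9, 54.5 and 63.6 to 1052, 589 and 279.5 CPM (3.41 ± 0.59, adjusted p = 7.80e-05). Man2b1, lysosomal α-mannosidase, fell from 725, 802 and 723 to 403, 191 and 141 CPM (-1.61 ± 0.35, adjusted p = 0.000652), and Tfe3, a transcription factor of lysosomal genes, from 104, 106 and 107 to 52, 53.6 and 42.9 CPM (-1.09 ± 0.15, adjusted p = 1.03e-06) with tight replicates. For ER protein folding and secretion, 16 of 24 genes rose and 2 fell (median 0.66). Manf, a secreted stress protein, rose from 69.2, 46.8 and 28.4 to 137, 105 and 148 CPM (1.43 ± 0.32, adjusted p = 0.000959), and the disulfide isomerase Pdia4 from 103, 89.6 and 157 to 239, 322 and 329.9 CPM (1.35 ± 0.36, adjusted p = 0.00476). The 2 that fell were sensors of ER stress, Atf6 from 64.5, 60.3 and 43.8 to 33.4, 32 and 35.2 CPM (-0.74 ± 0.19, adjusted p = 0.00199) and Ern1 (IRE1α) from 20.4, 18.5 and 22.4 to 12.2, 10.1 and 15.9 CPM (-0.68 ± 0.23, adjusted p = 0.0206). The Ern1 call was lost without M0 replicate 3 or M2 replicate 1 or 2, with no filter and with only the 6 libraries.

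Of 32 genes of matrix, proteases and growth factors, 9 rose and 10 fell (median 0.00), and 5 rose without M0 replicate 1 or M0 replicate 3. Mmp12, macrophage elastase, rose from 70.8, 72.6 and 53.3 to 1998, 2214 and 1701 CPM (4.91 ± 0.73, adjusted p = 1.26e-05), and F7, coagulation factor VII, from 3.41, 5.54 and 2.16 to 113, 85.4 and 42.9 CPM (4.45 ± 0.38, adjusted p = 2.86e-10). Thbs1, thrombospondin 1, fell from 228, 189.6 and 183 to 6.90, 8.11 and 23.1 CPM (-3.98 ± 0.73, adjusted p = 0.000132). The members that fell included Sparc, Timp1 and Timp3, which stromal cells also make, and the summed stromal markers were lower in M2 as well, and their part was not tested. In eicosanoid synthesis 3 of 14 genes rose and 5 fell (median -0.31), and 3 fell without M0 replicate 2, M0 replicate 3 or M2 replicate 3. Ptgs2, cyclooxygenase 2, rose from 2.10, 2.46 and 1.08 to 18, 14.2 and 12.2 CPM (2.96 ± 0.86, adjusted p = 0.00874), and the phospholipase Pla2g4a from 5.50, 5.23 and 7.30 to 19.9, 23.4 and 24.3 CPM (1.90 ± 0.39, adjusted p = 0.000303). Hpgd, which inactivates prostaglandins, went from 56.9, 29.6 and 66.3 CPM to 0 counts in every M2 library, at least 212-fold lower. Ltc4s, the leukotriene C4 synthase, fell from 11.8, 14.5 and 17.6 to 2.39, 4.28 and 3.22 CPM (-2.13 ± 0.53, adjusted p = 0.00212).

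Among 18 genes of MAP kinase feedback and immediate early response, 6 rose and 6 fell (median 0.06), and 3 fell without M2 replicate 2. Dusp4, a phosphatase of MAP kinases, rose from 1.57, 0.616 and 0.541 to 18.8, 28.2 and 24.6 CPM (4.64 ± 0.69, adjusted p = 7.22e-06), and Egr2, a transcription factor of the IL-4 response, from 7.34, 8.62 and 3.52 to 103, 49.3 and 32.2 CPM (3.25 ± 0.47, adjusted p = 4.64e-06). Its relative Egr1 fell from 35.6, 30.5 and 21.9 to 3.71, 2.93 and 5.70 CPM (-2.83 ± 0.49, adjusted p = 3.55e-05), and Fos from 36.7, 40.02 and 36.5 to 9.02, 7.43 and 7.44 CPM (-2.24 ± 0.32, adjusted p = 1.79e-06). Of 22 genes of core macrophage identity, 2 rose and 12 fell (median -1.09). The summed level was 38553, 43516 and 45024 CPM in M0 and 22138, 11988 and 8812 CPM in M2, with no overlap. Csf2ra, a chain of the GM-CSF receptor, rose from 67.3, 115 and 74.7 to 321, 209.7 and 126 CPM (1.36 ± 0.24, adjusted p = 4.65e-05), and the transcription factor Cebpb from 42.7, 50.2 and 57.9 to 66.9, 75.7 and 91.5 CPM (0.63 ± 0.18, adjusted p = 0.00549). Mertk, the receptor for dying cells, fell from 257, 309 and 337 to 95.8, 56.3 and 35.2 CPM (-2.27 ± 0.40, adjusted p = 6.90e-05). Lyz2 (lysozyme) and Csf1r (the M-CSF receptor) were among the falls, from 27201 to 7552 and from 6604 to 1862 mean CPM, whereas Adgre1, Itgam (CD11b) and Cd68 were not called. Defining markers of T and NK cells (Cd3e, Cd3d, Cd3g) and of B cells (Cd79a, Ms4a1) did not pass the count filter. Since the strand of counting is not stated, reads of Pdcd1lg2, Stab1, Oasl1, Irf9, Paox, Pfkp, Manf, Hpgd and Cebpb cannot be told apart from those of tested genes whose annotated spans overlap theirs.

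**Figure D4:**
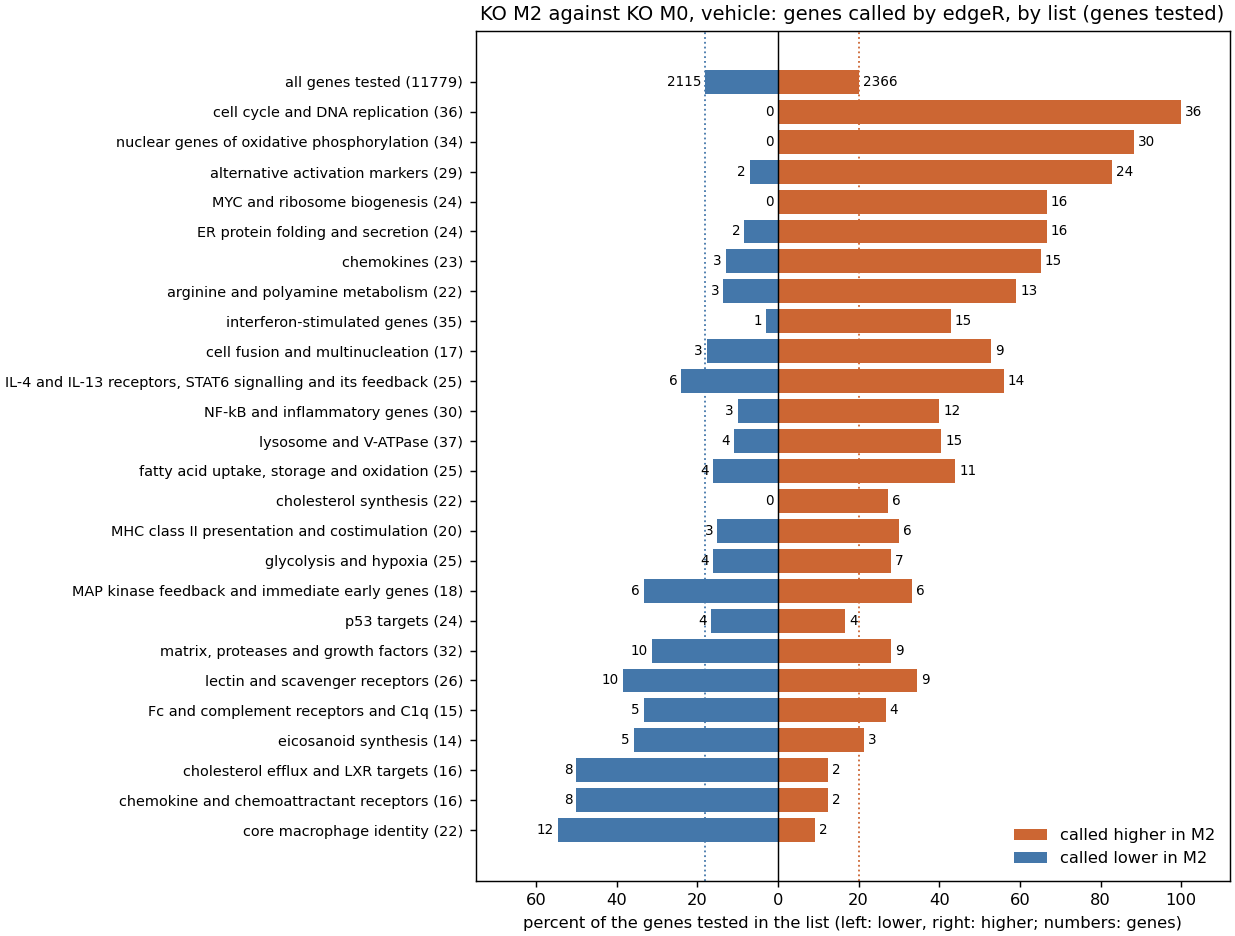
Percent of the tested genes of each list called higher (orange, right) or lower (blue, left) in KO M2 against KO M0, with the number of genes at each bar and dotted lines at the shares over all genes (20.1% and 18%). The cell cycle list is at its full length on the right with 36 genes, and core macrophage identity reaches furthest to the left with 12.

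In WT cells 2761 genes differed between M2 and M0 (23.4%), 1497 higher (12.7%) and 1264 lower (10.7%). The genes called in both genotypes in the same direction numbered 970, which is 21.6% of the KO calls and 35.1% of the WT calls, and 388 were called in opposite directions. Across the 11779 genes the fold changes of the genotypes had a Pearson r of 0.27 and a Spearman rho of 0.08, as a description, since genes are not independent replicates. The difference itself, KO minus WT, was called for 3197 genes (27.1%), 1642 of them higher (13.9%) and 1555 lower (13.2%). Of the KO calls, 2208 (49.3%) had a called difference. With scaling by total counts the higher share of the WT calls was 30.7% in place of 54.2%, with a median over all genes of -0.20, and that of the difference calls was 65.2% in place of 51.4%, with a median of 0.13.

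Alternative activation was similar in count, with 26 of 29 markers higher and 1 lower in WT, against 24 and 2 in KO. The difference was called for 7 of the 29, 1 higher and 6 lower in KO. Arg1 rose in WT by a log2 fold change of 8.52 ± 0.69, adjusted p = 1.73e-09, Retnla by 12.24 ± 1.44, adjusted p = 8.12e-07 and Chil3 by 7.27 ± 0.72, adjusted p = 5.27e-08. Their KO minus WT differences were not called (1.91 ± 1.02, adjusted p = 0.171, -2.28 ± 2.24, adjusted p = 0.481 and -0.90 ± 0.81, adjusted p = 0.432). With SEs of this size a difference of several fold could go uncalled for any of these genes, and a still larger one for Retnla. Il4ra fell in KO, whereas its WT fold change was 0.26 ± 0.25, adjusted p = 0.484, with a called difference of -1.27 ± 0.35, adjusted p = 0.00860 that was lost without WT M2 replicate 1.

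Every gene of the cell cycle list differed between the genotypes. All 36 had a called difference toward KO (median 3.90), and in WT 0 rose and 18 fell (median -0.99). Of the 8 differences with the lowest p, 6 were mitotic genes. Knl1, of the kinetochore, read 2.10, 2.15 and 2.98 CPM in KO M0 and 13, 34.7 and 23.8 CPM in KO M2, but 25.8, 28.9 and 42.9 CPM in WT M0 and 6.96, 9.05 and 11.7 CPM in WT M2, a difference of 5.11 ± 0.52, adjusted p = 3.37e-07. KO M0 was thus the lowest and WT M0 the highest of these groups by mean. The spindle checkpoint kinase Bub1 differed by 5.41 ± 0.57, adjusted p = 3.37e-07, the kinesin Cenpe by 4.65 ± 0.47, adjusted p = 3.37e-07, the cytokinesis factor Ect2 by 5.00 ± 0.55, adjusted p = 6.43e-07, the spindle protein Hmmr by 5.33 ± 0.58, adjusted p = 9.01e-07 and Ckap2l by 5.06 ± 0.56, adjusted p = 9.96e-07. The other two were Kmt5a, a histone H4 methyltransferase (2.58 ± 0.29, adjusted p = 9.01e-07), and Laptm5, a lysosomal membrane protein of blood cells (-2.01 ± 0.23, adjusted p = 9.01e-07). Laptm5 stood at 1749.6, 1987 and 1939 CPM in KO M0 and 767, 615 and 550.1 CPM in KO M2, and at 1161, 1181 and 1287 and 1294, 1603 and 2083 CPM in the WT groups. Ribosome biogenesis went with the cell cycle, with 13 of 24 differences toward KO and 0 toward WT.

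For several of the largest KO changes the M0 values of the genotypes did not overlap. Ccl7 was at 579.7, 57.1 and 26.6 CPM in WT M0 and 549, 63.6 and 17.7 CPM in WT M2, so that its M2 levels overlapped those of KO while its M0 levels did not (difference 7.37 ± 1.87, adjusted p = 0.00550). Ccl2 differed likewise (6.59 ± 1.65, adjusted p = 0.00484), and both calls were lost when only the libraries compared were fitted. Apoe stood at 802, 1397 and 1689 CPM in WT M0 and 70.7, 683 and 1253 CPM in WT M2 (difference -5.58 ± 1.19, adjusted p = 0.00133). The log2 fold changes of Acod1, Tarm1 and Tmem26 were larger in KO, by 4.19 ± 0.85, adjusted p = 0.000848, 3.27 ± 0.52, adjusted p = 4.42e-05 and 1.80 ± 0.39, adjusted p = 0.00113. Their M0 means were 6.99, 1.80 and 4.26 CPM in KO, against 325, 26.2 and 10.1 CPM in WT. By M2 mean, Acod1 and Tarm1 were lower in KO (289 and 73.2 CPM) than in WT (732 and 110 CPM), with overlapping libraries. These WT means were raised by replicate 1, since Acod1 read 1582, 436 and 176 CPM and Tarm1 209, 66.6 and 55.7 CPM in WT M2. That library also had the most neutrophil marker transcripts of WT M2, at 4319 summed CPM against 637 and 516 CPM. Tmem26 was higher in KO M2, at 462 CPM against 308 CPM in WT M2. Among the lists with lower calls, the difference was toward WT for 18 of 37 lysosomal genes (2 toward KO), 13 of 32 matrix genes (1 toward KO), 8 of 20 class II and costimulation genes (1 toward KO) and 8 of 15 Fc and complement genes (0 toward KO). In oxidative phosphorylation 15 of 34 genes rose and 0 fell in WT, and 13 differences were toward KO and 1 toward WT.

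**Figure D5:**
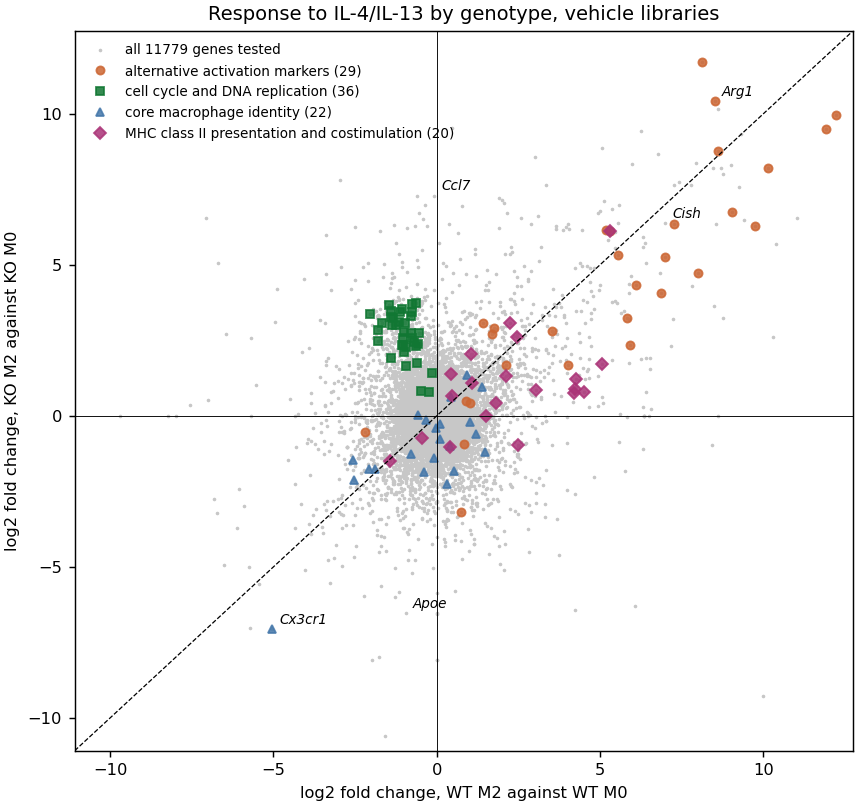
Log2 fold change of M2 against M0 in KO (vertical) and WT (horizontal) vehicle libraries for all 11779 tested genes, with 4 lists marked and the line of equal change dashed. Most alternative activation markers lie in the upper right near the line, whereas the 36 cell cycle genes lie above 0 in KO and below 0 in WT.

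In KO cells given AP-3-84, 2837 genes differed between M2 cells and M0 cells with the same compound (24.1%), 1371 higher (11.6%) and 1466 lower (12.4%). Without replicate 3 of the M0 group, the library with high Rn7sk, 3178 genes were called. The vehicle and AP-3-84 contrasts shared 1421 calls in the same direction, 31.7% of the vehicle calls and 50.1% of the AP-3-84 calls, and 132 were in opposite directions. Alternative activation was again called, with 24 of 29 markers higher and 1 lower. Arg1 stood at 5.05, 1.48 and 0 CPM in M0 and 1658, 689 and 1324 CPM in M2 with the compound (log2 fold change 9.10 ± 0.72, adjusted p = 8.27e-10), and Retnla at 1.52, 0.987 and 0 and 2664, 7902 and 2569 CPM (12.28 ± 1.39, adjusted p = 3.22e-07). Of the cell cycle list, 2 genes rose and 1 fell, with a median of 0.26, and of the interferon-stimulated genes 4 rose and 23 fell, with a median of -1.46. In vehicle these lists had 36 and 0, and 15 and 1. With the compound the cell cycle list summed to 1155, 3091 and 1289 CPM in M0 and 2544, 1595 and 2257 CPM in M2. The groups overlapped, and M0 replicate 2 was the highest of these libraries. Whether the response differed between compound and vehicle was not tested here.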

How the data were processed

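The authors deposited 1 table of read counts per gene and library (whole numbers, not normalized) with 51789 gene IDs. Per the submitters' processing notes, RSEM, Bowtie2 and DESeq2 were used, without a stated role or version. If RSEM made the counts, they are rounded estimates in which reads shared by similar genes were divided. For the genome build, annotation and strand setting of counting, nothing is given in the sources used here; gene positions come from GENCODE M21. Promoter sequences are from RefSeq (GRCm38.p6), matched by symbol for 8915 of the 11774 distinct symbols tested.

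Counts of the 36 bone marrow-derived libraries (12 groups of 3) were fitted together with edgeR 4.0.16 (R 4.3.3, limma 3.58.1), after filterByExpr by group and TMM normalization, with a robust quasi-likelihood test and Benjamini-Hochberg adjustment over 11779 genes. A gene was called at an adjusted p under 0.05. The 6 libraries held 3081707 to 4195908 counts, and the biological coefficient of variation over the fit was 0.225. The code was tested on simulated data with known fold changes.

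The members and lists were chosen with earlier results of these data known. Named genes were the 12 largest rises and 12 largest falls among called genes with a mean log2 CPM of 3 or more and no overlap of the groups, the 8 genotype differences of lowest p, up to 2 rises and 2 falls in each list, and Arg1, Retnla, Chil3, Mrc1, Il4ra, Stat6, Trp53, Cdkn1a, Ccng1 and Phlda3. Other genes were named after their values were seen. Some genes that the rule names are not reported here. Near copies were measured as the share of 30-base stretches in the last 500 bases of a gene's transcripts that occur in another gene. Alternatives were median-ratio and total-count scaling, no filter, DESeq2 1.42.0, other sets of libraries, a fold threshold, a replicate block and leaving out each library. Those for AP-3-84 were added after the data were seen.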

Additional observations from a re-analysis of the deposited data

Results flagged for a closer look

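The KO minus WT difference of the M2 against M0 response was tested for every gene (edgeR, an interaction over 12 libraries) and was called for 3197. The following log2 differences are those of genes named in the report. Toward KO they were 7.37 for Ccl7, 6.59 for Ccl2, 4.19 for Acod1, 3.27 for Tarm1, 1.80 for Tmem26 and 1.37 for Cdkn1a. Among cell cycle genes and the methyltransferase gene Kmt5a they were 5.11 for Knl1, 5.41 for Bub1, 4.65 for Cenpe, 5.00 for Ect2, 5.33 for Hmmr, 5.06 for Ckap2l and 2.58 for Kmt5a. Toward WT the lipid and iron genes gave -5.58 for Apoe, -3.91 for Apoc2 and -3.61 for Slc40a1, and F13a1 gave -2.25. The noncoding RNAs gave -4.72 for Rn7sk and -4.12 for Gm26917. The other large falls gave -5.52 for Nat8l, -6.18 for Samd4, -2.93 for Gpr162, -5.48 for Myl9 and -4.66 for Gm1673. Laptm5 gave -2.01, Il4ra -1.27 and Phlda3 -3.64.

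The KO M0 libraries enter every one of these differences, and they are the libraries with high Rn7sk and few cell cycle transcripts. The part of that state in the differences was not tested.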

How the results depend on the processing

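The KO contrast had 4481 calls in the main fit. Among alternatives that kept all 6 libraries and set no fold threshold, the lowest count was 3586, with only the 6 libraries fitted. The highest was 5171, with all 48 libraries, and DESeq2 called 4620. Where a log2 fold change of 1 or more in size was also required, there were 2485 calls in KO, 1372 in WT and 1582 in the AP-3-84 libraries, since that rule keeps fewer genes. With only the libraries compared, the AP-3-84 contrast had 1496 calls (the cause was not tested). Leaving out 1 library at a time gave 3418 to 4344 calls in KO, 1968 to 2544 in WT, 2246 to 3482 for the genotype difference and 2071 to 3178 in the AP-3-84 libraries. Of the main KO calls, 73.3% remained without M0 replicate 3 and 99.2% with all 48 libraries. Of 116 named genes called in KO, 98 kept the call under each alternative that gave a value (13, or 12 for Nos2), 18 lost it under at least 1, and 0 changed sign. Of 64 named difference calls, 45 were kept under each that gave a value (19, or 18 for Myc), and 19 were lost under at least 1, among them F13a1, Cdkn1a (without KO M2 replicate 3) and Phlda3 (without KO M2 replicate 2). The uncalled value of Trp53 (0.08) changed sign without M0 replicate 1 (-0.12), M0 replicate 2 (-0.08) or M2 replicate 3 (-0.38), and its range was -0.38 to 0.48. Replicate numbers were not used to pair the samples. Deviations from the group mean, correlated across genes, gave 0.01, 0.00 and -0.13 for same-numbered KO M0 and M2 libraries. Pairs with other numbers lay between -0.16 and 0.15. With 3 libraries per group these values cannot settle whether the numbers pair the samples. No such correlation was computed for WT. There Ccl7 and Ccl2 kept the same order of replicate numbers in M0 and M2, whereas Acod1 did not. With a replicate block within genotype the calls were 4335 in KO, 2642 in WT, 3037 for the difference and 2732 with AP-3-84. Genes with few counts are the ones depth limits, and a count of 0 in a group gives a bound only. A fit of only the libraries compared gave no value for Nos2, Cd163, Il12b, Phlda3 and Myc in KO, or for the Myc difference.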

Other observations

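Outside the neutrophil list, markers of other blood cells were few among the tested genes, and most defining ones did not pass the count filter. The 12 neutrophil genes summed to 674, 821 and 669 CPM in KO M0 and 434, 764 and 3469.9 CPM in KO M2. M2 replicate 1 thus lay below every M0 library and replicate 3 above them, with S100a8 and S100a9 at 1596 and 1419 CPM in replicate 3. The erythroid list was carried by the transferrin receptor gene Tfrc, which rose from 35.9 to 878 mean CPM (log2 fold change 4.61), while 6 of the 8 erythroid genes had no counts in the KO M0 libraries, and as many had none in KO M2. In the megakaryocyte list 1 of 4 tested genes, Vwf, was called higher, and the summed level was 3488, 4124 and 3398 CPM in M0 and 1754, 1911 and 1419 CPM in M2. Siglecf, a receptor of eosinophils that some macrophages also carry, rose from 0.103 to 3.36 mean CPM, with the eosinophil, basophil and mast cell list at no more than 18.4 summed CPM in any M2 library. The neutrophil receptor gene Cxcr2 rose from 1.87 to 6.40 mean CPM, and the dendritic cell factor Zbtb46 from 0.728 to 3.84 mean CPM. Cd4 fell from 6.45 to 0.177 mean CPM and the immunoglobulin gene Ighm from 19.7 to 3.89 mean CPM. Tfrc, Vwf, Siglecf, Cxcr2, Zbtb46, Cd4 and Ighm were chosen after their values were seen, as the called members of those lists.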
